A study of Mus musculus with 8 samples.

Results

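The heterogeneous nuclear ribonucleoproteins (hnRNPs) are RNA-binding proteins of the nucleus, and the transcripts of 10 of their genes were followed here: Hnrnpa1, Hnrnpa2b1, Hnrnpc, Hnrnpd, Hnrnpf, Hnrnph1, Hnrnpk, Hnrnpl, Hnrnpm and Hnrnpu. They were listed by name, with earlier results of these data known, are 10 of the 55291 gene symbols counted in every library, and all 10 passed the expression filter that 16371 genes passed. The 8 RNA-seq libraries come from mouse embryonic stem cells, cultured pluripotent cells of the early embryo. The sample labels name them E14, while the growth protocol speaks of R1 cells. DHX35, a helicase, or GPATCH1, a G-patch protein, carries a degron tag (FKBP12 with the F36V change), through which the compound dTAG-13 brings the tagged protein to the cell's degradation machinery.

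The 4 groups were DHX35-dTAG cells in DMSO, DHX35-dTAG cells in 200 nM dTAG-13, GPATCH1-dTAG cells in DMSO and GPATCH1-dTAG cells in 200 nM dTAG-13, all treated for 4 h and each with 2 libraries. The comparison asks how RNA levels differ once either spliceosome factor is depleted. The growth protocol, written for R1 cells, lists serum, LIF and the inhibitors PD0325901 and CHIR99021. The lines were grown from single picked colonies, and the labels do not say which clone gave which library. A difference between the lines therefore cannot be told apart from a difference between clones. Nor do the labels say that the 2 libraries of a group came from separate cultures, so the p-values measure only the spread between these libraries. An untagged line treated with dTAG-13 was not analysed here.

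The hnRNPs coat newly made transcripts as they leave RNA polymerase. Most of them bind through RNA recognition motifs, quasi-RRMs or KH domains, Hnrnpu through an RGG region, and many prefer certain short RNA sequences. Bound near a splice site, an hnRNP often blocks use of that site, whereas SR proteins bound to exons tend to promote splicing, and the balance of the families sets many alternative splicing choices. Several hnRNP genes also limit their own mRNA by including or skipping an exon so that the transcript is degraded. Exon inclusion was not analysed here, because a count per gene does not separate its exons.

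The library totals were 12765765 and 14173639 counts in DHX35-dTAG cells in DMSO and 12014203 and 13197149 in dTAG-13. For GPATCH1-dTAG cells they were 14663300 and 13353642 in DMSO and 14994173 and 13149257 in dTAG-13. At this depth the least counted member still had 3169 counts in a library (Hnrnpf in replicate 1 of DHX35-dTAG cells in DMSO), and members with more counts have a smaller counting error. Levels are given as CPM, the counts of a gene scaled to a common library size that was adjusted by the TMM method.

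One library stood apart from the rest. Replicate 1 of DHX35-dTAG cells in DMSO had a mean correlation of 0.976 with the other libraries. Each of the others had a mean of 0.988 to 0.990 with its remaining libraries, replicate 1 included. Small nuclear and nucleolar RNAs made up 0.366% of it (Wilson interval at 95%, 0.362 to 0.369) and at most 0.143% (0.142 to 0.145) of any other library. Mitochondrial mRNAs made up 0.272% (0.269 to 0.274), and at least 0.758% (0.753 to 0.762) elsewhere. These intervals cover counting error only. The part of this library's RNA composition in the results was not tested. The edgeR calls, the members' medians, the levels per length, the group separations and the nearest profiles that include it are therefore also given without it. DESeq2 results are given with all 8 libraries only.

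The stem cell identity in the labels was checked against marker genes. The 8 stem cell markers, among them Pou5f1 and Nanog, summed to between 5183 and 5827 CPM per library, and Tfcp2l1 had the highest CPM, 1555 to 1694. Marker CPM were not adjusted for gene length, so they do not order the markers by abundance. Markers of primitive endoderm (4 genes), mesoderm (3), neural cells (3), trophoblast (3) and feeder fibroblasts (5) summed to at most 5.26, 24.3, 11.2, 15.8 and 15.1 CPM. Of these, Sox17, Mesp1, Neurog2, Elf5, Col1a2 and Twist2 were below 1 CPM in every library, and all of them but Sox17 had 0 counts in at least 1 library. The others were counted in every library. Eomes had the highest CPM, 15.2 to 21.9, and the highest values of Pdgfrb, Sox1, Gata3, Cdx2 and Thy1 were 11.6, 8.67, 8.37, 7.37 and 3.62 CPM. Those of T, Pax6, Col1a1, Gata4, Gata6 and Sox7 were 2.89, 2.64, 2.14, 2.12, 2.09 and 1.93 CPM. Some marker levels differed between the lines. The trophoblast sum was 7.25 to 10.1 CPM in DHX35-dTAG libraries and 12.4 to 15.8 in GPATCH1-dTAG libraries. Within this sum Gata3 was at 2.96 to 4.62 and 7.25 to 8.37 CPM. Cdx2 overlapped between the lines (4.07 to 7.09 and 4.92 to 7.37 CPM), and Elf5 was at most at 0.0884 CPM. The share of all genes that separate the lines in this way is not given here. The stem cell sum was 5411 to 5827 and 5183 to 5372 CPM, with 5827 in the library that stood apart and at most 5548 in the other DHX35-dTAG libraries. Single stem cell markers did not follow this sum. Klf4 (249 to 349 and 360 to 364 CPM) and Tfcp2l1 (1555 to 1661 and 1663 to 1694) were higher in every GPATCH1-dTAG library. The other stem cell markers overlapped between the lines. The sums of the other types overlapped between the lines.

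The mRNAs of the tagged genes were examined in every library first. Gpatch1 stood at 25.6 and 23.4 CPM in DHX35-dTAG cells in DMSO and at 23.2 and 23.7 in dTAG-13. In GPATCH1-dTAG cells it stood at 7.31 and 6.90 CPM in DMSO and at 7.06 and 7.20 in dTAG-13. The lines did not overlap, and the log2 difference in DMSO of -1.78 (standard error 0.12) was called (edgeR adjusted p = 0.000643), and it was -1.71 and called without the library that stood apart. It was called in 14 of 15 alternatives, the exception being the fit of only the libraries compared (edgeR adjusted p = 0.134). Dhx35 was at 72.3 and 80.4 CPM in DMSO and 84.8 and 79.5 in dTAG-13 in its own tagged line. In GPATCH1-dTAG cells it was at 58.1 and 58.4 CPM in DMSO and at 59.3 and 64.9 in dTAG-13, below every library of the DHX35-dTAG line. Its log2 difference between the lines, -0.39 in DMSO (standard error 0.09, edgeR adjusted p = 0.291) and -0.40 in dTAG-13 (0.09, edgeR adjusted p = 0.265), was not called with all 8 libraries. Without the library that stood apart it was -0.46 and -0.41 and was called in both (edgeR adjusted p = 0.00638 and 0.00180). Over all alternatives the adjusted p of Dhx35 ran from 0.00638 to 0.827 in DMSO and from 0.00180 to 1.00 in dTAG-13. The degron acts on the protein, so neither mRNA measures whether the tagged protein was lost, and protein was not analysed here.

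As a group the members are abundant mRNAs. Without the 2 RNA genes with the highest counts, which took between 1.27% and 20.9% of a library, the 10 members held between 0.636% (95% Wilson interval 0.631 to 0.640) and 0.736% (0.732 to 0.741) of the counts. Replicate 1 of DHX35-dTAG cells in dTAG-13 was the lowest and the DMSO library that stood apart the highest. The other 6 libraries lay between 0.656% and 0.673%. In bulk RNA, fewer cells with a transcript and less of it per cell cannot be told apart.

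Levels can be compared between genes only per length. Per kb of merged exons, Hnrnpa1, a core hnRNP that silences exons and shuttles to the cytoplasm, had the highest mean over the 8 libraries, 262 ± 29 CPM per kb (SD, n = 8). The KH-domain protein gene Hnrnpk, whose product binds C-rich RNA, followed at 142 ± 5.2 CPM per kb. Both differed from their neighbours in the order in 8 of 8 libraries. Next came Hnrnpf (119 ± 17) and Hnrnpl (118 ± 6.9), which were not separated, since Hnrnpf was above Hnrnpl in 6 of 8 libraries. Hnrnpc (106), Hnrnpa2b1 (105) and Hnrnpu (102 CPM per kb) followed and were not separated either: Hnrnpc was above Hnrnpa2b1 in 3 of 8 libraries, and Hnrnpa2b1 above Hnrnpu in 5. Hnrnph1 (55.5), Hnrnpm (48.2) and Hnrnpd (40.3 CPM per kb) were the lowest, each above the next in 8 of 8. Without the library that stood apart, a choice made after seeing the data, 8 of 10 members kept their place, and Hnrnpu (102) and Hnrnpa2b1 (102 CPM per kb) changed places. The mean of Hnrnpa1 was then 253 ± 11 and that of Hnrnpf 125 ± 4.2 CPM per kb (SD, n = 7), with Hnrnpf above Hnrnpl in 6 of 7 libraries.

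**Figure D1:**
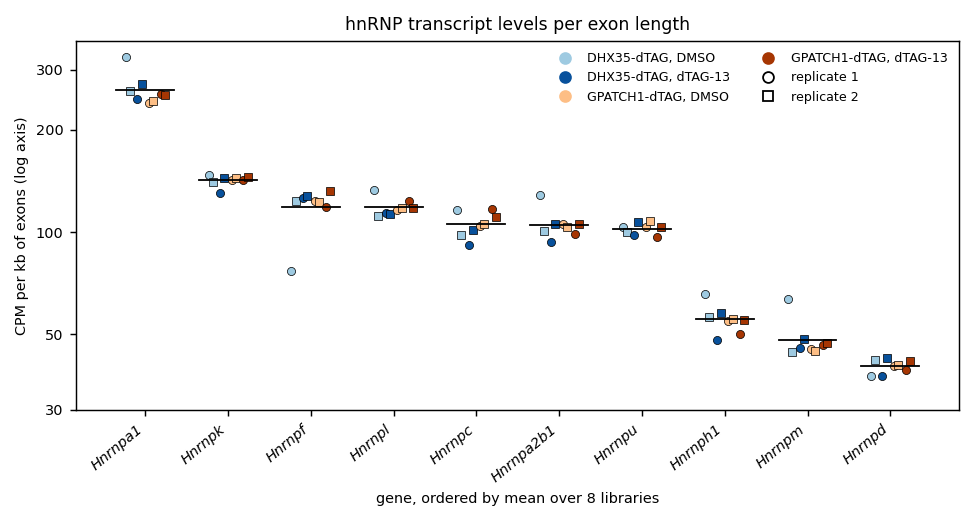
Level of each member per kb of merged exons (vertical log axis, CPM per kb) for the 8 libraries, coloured by group, with circles for replicate 1, squares for replicate 2 and a line at the mean. Hnrnpa1 averages 262 and Hnrnpd 40.3, and the pale blue circle of DHX35-dTAG DMSO replicate 1 lies away from the other points for several genes.

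Among the 12776 protein-coding genes tested, Hnrnpa1 ranked 86 from the top per kb and Hnrnpd, the lowest member, 1027, or 88 and 1017 without the library that stood apart. The order depends on which length is used. With the longest coding sequence 3 of 10 members kept their rank, and with the transcript that carries that sequence 3 of 10 did. Hnrnpa1 stayed at rank 1 with the coding sequence and moved to 4 with the transcript, Hnrnpf moved from 3 to 7 and 8, and Hnrnpa2b1 from 6 to 3 and 1.

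The core particle proteins come first. Hnrnpa1 (ENSMUSG00000046434.16, chromosome 15 of GRCm38 from 103240432 to 103246692) was at 1034 and 821 CPM in DHX35-dTAG cells in DMSO and at 779 and 859.6 in dTAG-13. In GPATCH1-dTAG cells the level was 757 and 767 CPM in DMSO and 802 and 795 in dTAG-13. The groups overlapped in the DHX35-dTAG line, where replicate 1 in DMSO was the highest of all 8 libraries. In the GPATCH1-dTAG line both dTAG-13 libraries lay above both DMSO libraries, by less than the gap between the DHX35-dTAG libraries of either treatment.

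Hnrnpa2b1 (chromosome 6, 51460932 to 51469894), whose product is closely related and is also known for mRNA transport, read 848 and 663 CPM in DHX35-dTAG cells in DMSO and 615 and 694 in dTAG-13. The GPATCH1-dTAG libraries had 695 and 679 CPM in DMSO and 649 and 695 in dTAG-13. Neither line separated its treatments. Hnrnpc (chromosome 14, 52073377 to 52104028), which binds uridine tracts and keeps cryptic exons from being spliced in, had 501 and 424 CPM in DHX35-dTAG cells in DMSO and 396 and 439 in dTAG-13. Its levels in GPATCH1-dTAG cells were 451 and 457 CPM in DMSO and 506 and 477 in dTAG-13. The dTAG-13 libraries of the GPATCH1-dTAG line were both above the DMSO ones, and also above both dTAG-13 libraries of the DHX35-dTAG line.

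The F and H proteins bind runs of G. Hnrnpf (ENSMUSG00000042079.13, chromosome 6 from 117900324 to 117925622) stood at 234 and 377 CPM in DHX35-dTAG cells in DMSO and at 383 and 388 in dTAG-13. In GPATCH1-dTAG cells it stood at 375 and 372 CPM in DMSO and at 360.4 and 401 in dTAG-13. The DHX35-dTAG groups did not overlap, with a gap of 377 to 383 CPM, and the lowest library was the one that stood apart. Hnrnph1 (chromosome 11, 50376990 to 50386528) ranged from 282 to 384 CPM over the 8 libraries, and its treatments overlapped in both lines.

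Among the remaining members, Hnrnpm was the one furthest above the other libraries in the library that stood apart. Hnrnpm (ENSMUSG00000059208.15, chromosome 17 from 33646233 to 33686860), a splicing regulator that binds GU-rich RNA, was at 507 and 354 CPM in DHX35-dTAG cells in DMSO and at 362 and 386 in dTAG-13. GPATCH1-dTAG cells had 361 and 355 CPM in DMSO and 369.6 and 376 in dTAG-13. Leaving aside the library that stood apart, its 7 other values lay between 354 and 386 CPM.

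Hnrnpl (chromosome 7, 28808541 to 28822266), which binds CA repeats, ranged from 664 to 789.6 CPM. Hnrnpk (chromosome 13, 58391142 to 58403343) ranged from 842 to 953 CPM. Hnrnpd (chromosome 5, 99955935 to 99978938), also called AUF1 and known for binding AU-rich elements of unstable mRNAs, ranged from 276 to 314 CPM. Hnrnpu (chromosome 1, 178321108 to 178337797), a nuclear scaffold protein that holds RNA to chromatin, ranged from 1122 to 1246 CPM, and in GPATCH1-dTAG cells both dTAG-13 libraries (1122 and 1197) were below both DMSO libraries (1201 and 1246).

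**Figure D2:**
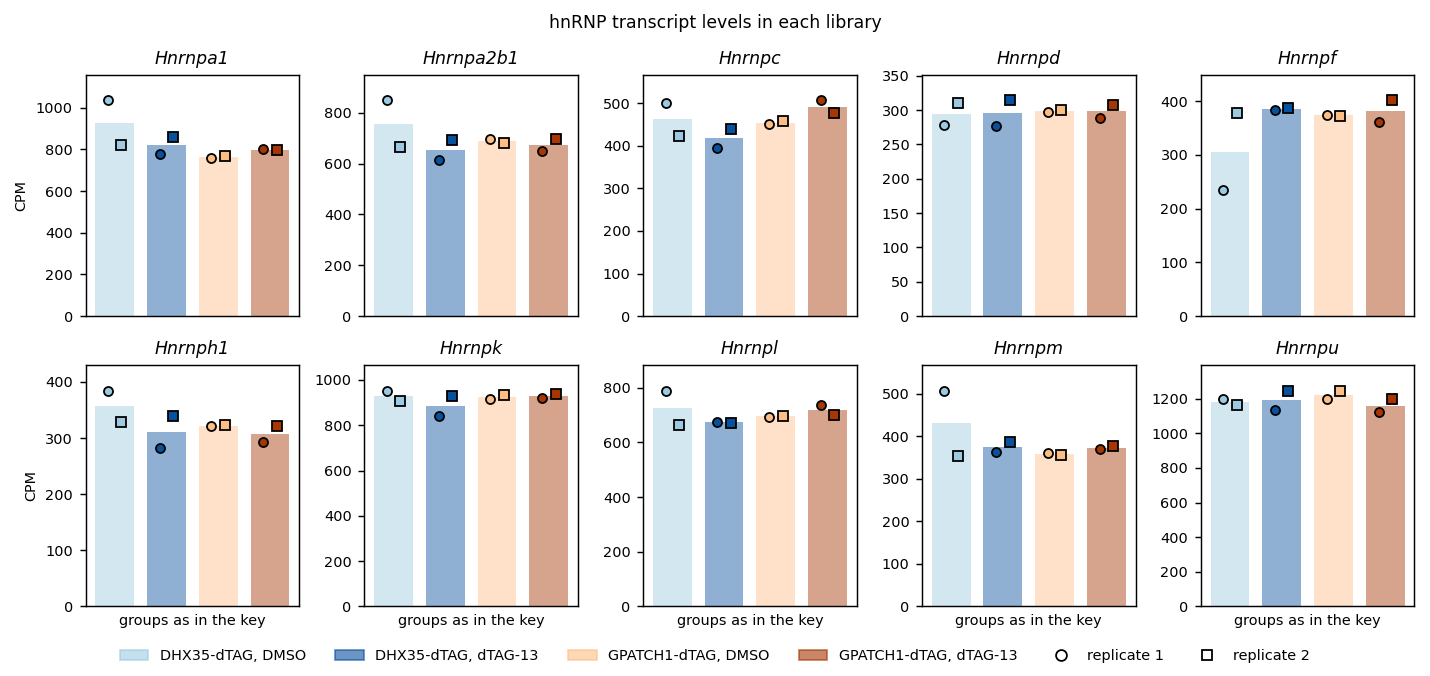
Level of each of the 10 members in every library (vertical axis, CPM from 0; circle replicate 1, square replicate 2), with bars at the mean of the 2 libraries of each group. The circle in the first bar, DHX35-dTAG DMSO replicate 1, is highest for Hnrnpa1 (1034) and Hnrnpm (507) and lowest for Hnrnpf (234).

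How much the members varied among the 8 libraries differed between them. The SD of log2 CPM was 0.05 for Hnrnpk and 0.06 for Hnrnpu, against 0.17 for Hnrnpm and 0.25 for Hnrnpf. The median over the members was 0.13, over the 17 other hnRNP genes 0.11, over the 13 SR genes 0.13 and over the 2284 genes with at least 100 CPM 0.11. Without the library that stood apart these medians were 0.06, 0.06, 0.10 and 0.07, and Hnrnpf had 0.05. Hnrnpc then varied most, at 0.12.

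That library lay outside the range of the other 7 for 7 of 10 members, above it for Hnrnpa1, Hnrnpa2b1, Hnrnph1, Hnrnpk, Hnrnpl and Hnrnpm and below it for Hnrnpf. It did so for 59.8% of all genes tested, 12 of 17 other hnRNP genes and 11 of 13 SR genes. Replicate 1 of DHX35-dTAG cells in dTAG-13 was outside for 5 members, against 22.8% of all genes, each time as the lowest: Hnrnpa2b1, Hnrnpc, Hnrnpd, Hnrnph1 and Hnrnpk. Each of the other 6 libraries was outside for 1 or 2 members, and for 15.0% to 24.2% of all genes.

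Depletion of DHX35 for 4 h gave no call among the members. By edgeR (quasi-likelihood F test, p-values adjusted over all genes by Benjamini-Hochberg, threshold 0.05), 0 of 10 members and 0% of 16371 genes were called. At an unadjusted p under 0.05 there were 0 members and 5.39% of genes. DESeq2 called 0 members and 1 gene, and gave 1 member, Hnrnpf, and 2.88% of genes an unadjusted p under 0.05. Hnrnpf had the highest log2 fold change, 0.33 (standard error 0.18, 95% interval -0.08 to 0.74, edgeR adjusted p = 0.715), and both dTAG-13 libraries were above both DMSO ones. It was the 1 member whose groups did not overlap with dTAG-13 higher, where 14.6% of genes were such, and 0 members were separated with dTAG-13 lower, where 14.1% were.

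Hnrnpa2b1 had the lowest value, -0.21 (standard error 0.12, edgeR adjusted p = 0.715), followed by Hnrnpm at -0.20 (0.14), Hnrnph1 at -0.20 (0.11) and Hnrnpa1 at -0.18 (0.11). Hnrnph1 moved to -0.075 without DHX35-dTAG dTAG-13 replicate 1 and to -0.33 without replicate 2 of that group. The median log2 fold change was -0.13 over the members, with 7 of 10 below 0. It was -0.01 over all genes, with 8435 of 16371 below 0, and 0.03 over the genes with at least 100 CPM, with 959 of 2284 below 0. The 95% intervals differed in width between members. They ran from 0.835-fold to 1.09-fold for Hnrnpk and from 0.883-fold to 1.16-fold for Hnrnpu, but from 0.693-fold to 1.09-fold for Hnrnpm, the lowest bound, and from 0.949-fold to 1.67-fold for Hnrnpf, the highest.

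Without replicate 1 in DMSO, which leaves 1 DMSO library assumed to vary like the other groups, the same test called 0 members and 0.0117% of 17037 genes. The members' median was then -0.01, with values from -0.08 (Hnrnph1) to 0.08 (Hnrnpm), and the value of Hnrnpf was 0.03 (standard error 0.07). The lowest and highest bounds of their intervals were 0.828-fold and 1.17-fold. Hnrnpf, Hnrnpl and Hnrnpm then lay above the lone DMSO library in both dTAG-13 libraries, 3 of 10 where 30.7% of genes did, and 0 members lay below it, where 30% did. Without replicate 2 in DMSO, which leaves the library that stood apart as the lone control, 7 members were called, 6 lower and 1 (Hnrnpf) higher, where 28.8% of 17175 genes were called. The median was then -0.24. Among the alternatives run, every call of a member after DHX35 depletion came from the fit in which that 1 library was the whole control group.

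Depletion of GPATCH1 gave no call among the members either. The edgeR test called 0 of 10 members and 0% of genes, with 0 members and 2.97% of genes at an unadjusted p under 0.05, and DESeq2 called 0 members and 0 genes. The median log2 fold change was 0.02 over the members, with 6 of 10 above 0, against 0.00 over all genes, with 8324 of 16371 above 0, and 0.03 over the genes with at least 100 CPM, with 1605 of 2284 above 0. Hnrnpc had the highest value, 0.12 (standard error 0.10, edgeR adjusted p = 1.00, 95% interval -0.11 to 0.35), and Hnrnpu the lowest, -0.08 (0.09, -0.27 to 0.12). Hnrnpc moved to 0.07 without GPATCH1-dTAG dTAG-13 replicate 1 and to 0.16 without replicate 2 of that group, and Hnrnpu to -0.03 and -0.12. Hnrnpa1, Hnrnpc, Hnrnpl and Hnrnpm were separated with dTAG-13 higher, 4 of 10 where 21.5% of genes were, and Hnrnpu with dTAG-13 lower, 1 of 10 where 20.3% were. The narrowest gap was that of Hnrnpl, from 698.5 CPM in DMSO to 699.4 in dTAG-13. The share separated among genes with at least 100 CPM is not given here.

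The lowest and highest bounds of the members' intervals in this line were 0.768-fold and 1.35-fold. Without the library that stood apart, which belongs to the other line and enters through the expression filter, the scaling and the shared spread, they were 0.858-fold and 1.19-fold, with 0 members and 0.299% of genes called. The values themselves then moved by less than their standard errors.

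**Figure D3:**
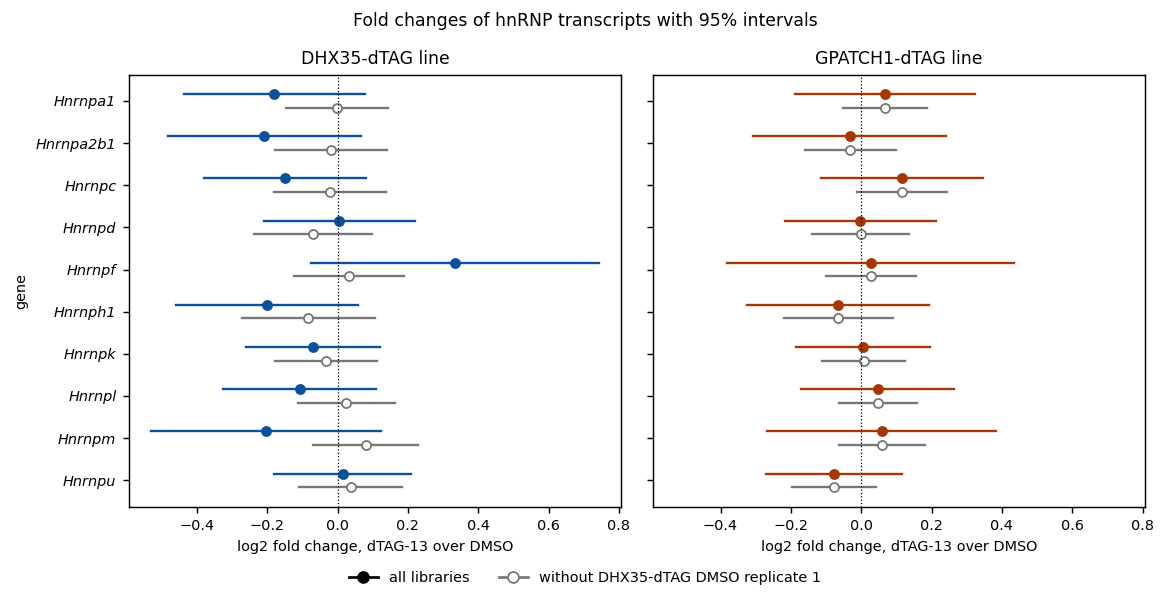
Log2 fold change of each member with dTAG-13 over DMSO in the 2 lines (horizontal axis), with 95% intervals from edgeR; filled points use all 8 libraries and open points leave out DHX35-dTAG DMSO replicate 1. Every interval drawn includes 0, and the DHX35-dTAG value of Hnrnpf moves from 0.33 to 0.03.

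The lines' responses were compared directly by an interaction term. It called 0 of 10 members and 0% of genes, with 0 members and 3.91% of genes at an unadjusted p under 0.05, while DESeq2 called 0 members and 9 genes. The largest difference among the members, GPATCH1-dTAG minus DHX35-dTAG, was -0.31 for Hnrnpf (standard error 0.26, 95% interval -0.88 to 0.27, edgeR adjusted p = 0.862). Without the library that stood apart the difference of Hnrnpf was -0.005, and the largest was 0.14 for Hnrnpc. The members' median was 0.14, beside 0.00 over all genes and over those with at least 100 CPM, and without the library that stood apart it was 0.02, with 0 members and 0.0528% of genes called. Without replicate 2 of the same group it was 0.25, with 6 members called where 20.9% of genes were.

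Both lines together gave 0 members called, again with 0% of genes, and 0 members with 3.59% of genes at an unadjusted p under 0.05. DESeq2 called 0 members and 4 genes. Hnrnpf was highest at 0.18 (standard error 0.13, 95% interval -0.11 to 0.47) and Hnrnph1 lowest at -0.13 (0.08, -0.31 to 0.05). Without the library that stood apart Hnrnpf was at 0.03, Hnrnpm was highest at 0.07 and Hnrnph1 was still lowest, at -0.07. The members' median was -0.03, beside -0.01 over all genes and 0.03 over those with at least 100 CPM, and without the library that stood apart it was 0.01, with 0 members and 0.047% of genes called.

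Between the lines in DMSO, 0 members and 0.0916% of genes were called, and 1 member, Hnrnpa1, and 12.9% of genes had an unadjusted p under 0.05. Hnrnpa1 was lower in the GPATCH1-dTAG line by a log2 difference of -0.28 (standard error 0.11, 95% interval -0.54 to -0.03, edgeR adjusted p = 0.363), in 2 of 2 libraries. Hnrnpf had the highest value, 0.29 (standard error 0.18, 95% interval -0.12 to 0.70, edgeR adjusted p = 0.476). The members' median was -0.05, beside -0.01 over all genes and 0.04 over those with at least 100 CPM. Without the library that stood apart the difference was -0.11 for Hnrnpa1 and -0.01 for Hnrnpf, the members' median was 0.02, and 0 members and 0.71% of genes were called. With that library as the lone DHX35-dTAG control, 6 members were called, where 34.3% of genes were. Over all alternatives the adjusted p ran from 8.3e-05 to 0.827 for Hnrnpa1. Hnrnpa1 and Hnrnph1 were separated with the GPATCH1-dTAG line lower, where 21.3% of genes were, and Hnrnpu with it higher, where 21.8% were. Against the lone DHX35-dTAG DMSO library that remains without the one that stood apart, 4 members lay lower, where 36.9% of genes did, and 6 higher, where 37.1% did. DESeq2 called 0 members and 47 genes, with 1 member, Hnrnpa1, and 7.88% of genes at an unadjusted p under 0.05.

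Between the lines in dTAG-13, 0 members and 0.0916% of genes were called, and 1 member, Hnrnpc, and 8.47% of genes had an unadjusted p under 0.05. Hnrnpc was higher in the GPATCH1-dTAG line by 0.24 on the log2 scale (standard error 0.10, 95% interval 0.01 to 0.47, edgeR adjusted p = 0.578), in 2 of 2 libraries. It was called when either DMSO library of the DHX35-dTAG line was left out (edgeR adjusted p = 0.0368 without replicate 1 and 0.0372 without replicate 2, where 3.87% and 3.79% of genes were called), although neither enters the difference and its size stayed 0.24. Over all alternatives its adjusted p ran from 0.0368 to 1.00. In DMSO the same difference was -0.03 (0.10), and 0.10 without replicate 1. Hnrnpu had the lowest value in dTAG-13, -0.04 (standard error 0.09), and the members' median was 0.01, beside -0.01 over all genes and 0.04 over those with at least 100 CPM. Hnrnpc and Hnrnpl were separated with GPATCH1-dTAG higher, 2 of 10 where 21.8% of genes were, and 0 members with it lower, where 23.9% were. DESeq2 called 0 members and 48 genes, with 1 member, Hnrnpc, and 3.28% of genes at an unadjusted p under 0.05.

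The 17 other hnRNP genes and the 13 SR genes, all of which passed the filter, gave 0 calls in the 6 comparisons with edgeR or DESeq2. At an unadjusted p under 0.05 edgeR had at most 1 of 17 and 2 of 13 of them in any comparison. Without the library that stood apart there were at most 2 of 17 and 6 of 13, the latter after GPATCH1 depletion, where 8.41% of genes were under that p. Some of these genes were called under other settings, and Srsf3, Srsf7, Tra2a and Ptbp1 are named here after their values were seen. With no expression filter the calls were Pcbp2 (1 of 17) and Srsf3 and Srsf9 (2 of 13) after DHX35 depletion, among 345 genes called in all. For the difference of responses they were Srsf3 (1 of 13) among 140 genes, and between the lines in DMSO Hnrnpa0, Hnrnph3, Pcbp2 and Ptbp1 (4 of 17) and Srsf9 (1 of 13) among 986. The number of genes tested is not given here for the fit with no filter or with only the libraries compared. The calls under these settings are therefore not set against a share of all genes. Between the lines in dTAG-13, Tra2a (1 of 13) was called with only the libraries compared, among 342 genes, and with DHX35-dTAG DMSO replicate 2 left out, among 651. With replicate 1 of that group left out Tra2a and Srsf7 (2 of 13) were, among 660. With the library that stood apart as the lone control, 9 of 17 and 6 of 13 were called after DHX35 depletion, where 28.8% of all genes were, 8 and 6 for the difference of responses, where 20.9% were, and 10 and 6 between the lines in DMSO, where 34.3% were. After DHX35 depletion the lowest hnRNP gene was Hnrnpa0 (-0.32, standard error 0.18) and the highest Pcbp2 (0.43, 0.25), a C-rich RNA binder. Pcbp2 had 314 CPM in the library that stood apart and between 607 and 665 in the others, and Hnrnpa0 481 against 295 to 329.7. Of the SR genes, Srsf9 was lowest (-0.48, 0.23) and Srsf12 highest (0.50, 0.30), the latter at no more than 1.87 CPM in any library. Without that library the other hnRNP genes ran from -0.12 to 0.12 and the SR genes from -0.12 (Srsf10) to 0.26 (Srsf12).

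After GPATCH1 depletion Hnrnph3 was lowest (-0.22, standard error 0.11) and Hnrnpul2 highest (0.11, 0.13) among the other hnRNP genes, and Srsf6 (-0.16, 0.08) and Srsf9 (0.18, 0.23) among the SR genes. The median log2 fold change of the other hnRNP genes was 0.01 and of the SR genes 0.09, beside 0.02 for the members and 0.00 for all genes.

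Among 8938 other genes with a mean of at least 10 CPM, the 3 whose log2 profile over the 8 libraries lay closest to the members' mean profile were Ywhaq, Eed and Rtn4, at root mean square distances of 0.0145, 0.0147 and 0.0182. The median of these candidates was at 0.133. The members themselves lay at 0.0231 (Hnrnpk) to 0.271 (Hnrnpf) from their own mean with Hnrnpu second at 0.0504. Ywhaq, for example, ranged from 249.9 to 282 CPM. Over the 7 libraries other than the one that stood apart, Eed, Rtn4 and Ywhaq ranked 3, 4 and 8 among the same candidates, at distances of 0.0130, 0.0132 and 0.0145, with the median at 0.0910. These 7 libraries are part of the 8 used to pick the genes, so the ranks are no independent check. The 3 genes were picked for a small distance, and the members were not.

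Some reads of the members may be counted on other genes. Hnrnpa1 has 14 annotated pseudogenes with transcripts at least 90% identical over at least 300 bases, which together held 2081 counts over the 8 libraries, 2.26% of both. Hnrnpk has 2 such copies (3566 counts, 3.44%), Hnrnpf 7, of which 6 were analysed (660 counts, 1.65%), and Hnrnpc 3 (520 counts, 1.03%). The 2 pseudogenes whose symbols carry the name of a member, Hnrnpa1l2-ps and Hnrnpa1l2-ps2, had 195 and 191 counts. Hnrnpm shares 1169 exon bases with Marchf2 on the same strand, and 5 members overlap exons of genes on the opposite strand. These are Hnrnpu (Cox20, 804 bases), Hnrnpf (4933440N22Rik, 410 bases, and Gm43863, 396 bases), Hnrnpd (Gm17092, 385 bases), Hnrnpk (Rmi1, 330 bases) and Hnrnpl (Gm44702, 32 bases). How far this moves the levels of these members was not tested. The counting program and strand setting, on which it depends, are not given in the sources used here.

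The promoters of the members share no single motif among 4 that were searched. RefSeq (GRCm38.p6) gave 18 windows of 250 bases before an annotated start for 10 of 10 members. The letters CCAAT, read on either strand, were in at least 1 window of 7 members (Hnrnpa1, Hnrnpa2b1, Hnrnpc, Hnrnpf, Hnrnph1, Hnrnpk and Hnrnpl) and in 33.8% of all 32851 windows, or 37.5% of symbols. GGGCGG was found for 6 members (35.4% of symbols, 32.7% of windows), TATAAA for 1, Hnrnpm (14.3% and 12.4%), and CACGTG for 2, Hnrnpd and Hnrnpf (6.86% and 6.02%). No motif of the 4 contains another. A match is a description of the sequence and shows no binding. The window of Hnrnpa1, the member with the highest level per kb of merged exons, and that of Hnrnpu are printed as a pair with and without CCAAT. Their shares of G and C are 46% and 73.6%, beside a median of 52.4% over all windows. The first lies at chr15:103240147-103240396 on the plus strand and holds CCAAT 4 times, and the second at chr1:178337816-178338065 on the minus strand with 0. Capitals mark the motif.
Hnrnpa1: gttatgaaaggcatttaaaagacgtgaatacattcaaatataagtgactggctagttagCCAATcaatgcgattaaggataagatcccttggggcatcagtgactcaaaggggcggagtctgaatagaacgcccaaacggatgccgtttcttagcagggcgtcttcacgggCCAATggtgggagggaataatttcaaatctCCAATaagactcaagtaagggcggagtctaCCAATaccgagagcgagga
Hnrnpu: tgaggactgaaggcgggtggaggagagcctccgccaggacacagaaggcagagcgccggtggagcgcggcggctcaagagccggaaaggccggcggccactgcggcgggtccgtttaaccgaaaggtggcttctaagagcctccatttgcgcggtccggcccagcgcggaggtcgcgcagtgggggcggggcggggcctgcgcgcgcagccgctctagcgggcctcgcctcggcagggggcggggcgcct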

How the data were processed

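For the 8 libraries, human DLD-1 RNA was added to the extracted RNA, ribosomal RNA was then depleted, and stranded libraries were made. For each library the authors deposited the whole-number counts of all genes as a separate table. The submitters' processing notes name FastQC 0.11.9, Trim Galore 0.6.6, STAR 2.7.5c, DESeq2 1.26.0 and the builds mm10 and hg19; the counting program, annotation and strand setting are not given in the sources used here. Human spike-in reads were not used here.

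Tests used edgeR 4.0.16 under R 4.3.3 (TMM, filterByExpr, quasi-likelihood F test, 1 term per group over 8 libraries, Benjamini-Hochberg adjustment over all genes tested, threshold 0.05); the effect across both lines used a model with line and treatment. DESeq2 1.42.0 was an alternative. Standard errors were taken from each fold change and its F statistic, and 95% intervals use the t distribution. Lengths came from GENCODE M21, in which 53292 of 55291 symbols were found. The analysis was tested on simulated data, where signs and sizes of 2-fold changes were recovered but part of the changed genes was not called. A minimum number of such calls, required at first, was not reached for the DHX35-dTAG comparison and was dropped, so 0 calls there do not show that no gene changed. Replicates of a group differed by more than sampling noise.

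The members and lists were chosen with earlier results of these data known. By rule, the genes named are the members, the tagged genes, other hnRNP genes called, the highest and lowest other hnRNP and SR genes within each line, the 3 nearest profiles, and pseudogenes named for a member. Cell type markers and genes that overlap a member are named besides, and Srsf3, Srsf7, Tra2a and Ptbp1 after their values were seen.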

Additional observations from a re-analysis of the deposited data

Results flagged for a closer look

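Dixon's ratio, the gap of the farthest library to its neighbour over the whole range of the 8 libraries, was taken for 17 measures against its 95% limit, which chance passes in about 1 of 20. For 4 members the library farthest off was DHX35-dTAG DMSO replicate 1: Hnrnpm (0.793), Hnrnpf (0.755), Hnrnpa2b1 (0.654) and Hnrnpa1 (0.630). It was low for Hnrnpf and high for the other 3. The same library passed the limit in 4 measures of the whole library: the share of small nuclear and nucleolar RNA (0.904), the mean correlation with the other libraries (0.880), the members' share of counts without the 2 genes with the highest counts (0.627) and the share of mitochondrial mRNA (0.565). These 8 measures come from 1 library and are not independent of each other. For Hnrnpk (0.598) the library farthest off was DHX35-dTAG dTAG-13 replicate 1, at 842 CPM, the lowest of the 8. The edgeR test of the difference between the lines' responses called 0 members with all 8 libraries and 0 at an unadjusted p under 0.05. DESeq2 called 0. The edgeR intervals reached from 0.542-fold (Hnrnpf) to 1.65-fold (Hnrnpm). The log2 differences of these genes were -0.31 and 0.26 with all 8 libraries. They were -0.005 and -0.02 without DHX35-dTAG DMSO replicate 1, and -0.70 and 0.49 without replicate 2 of that group.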

How the results depend on the processing

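Under DESeq2, DESeq2 size factors in edgeR, both other filters, tables without the 2 most counted genes, the replicate block and a fit of only the libraries compared, 0 members were called in each comparison that setting could be run on. Genes called did move. DESeq2 called 1 gene after DHX35 depletion, 9 for the difference of responses, 4 across both lines, 47 between the lines in DMSO and 48 in dTAG-13, against 0, 0, 0, 15 and 15. With no expression filter the counts were 345, 21 (GPATCH1 depletion), 140, 80, 986 and 158. At least 10 counts in every library left 4 and 4 between the lines. Only the libraries compared gave 1 and 127 for the DHX35 and GPATCH1 depletions and 2 and 342 between the lines.

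The deviations of libraries that share a replicate number were weakly correlated, from 0.0372 to 0.23 and all above 0. The main fit did not treat these libraries as pairs. The replicate block gave 2 genes for the difference of responses, 16 and 19 between the lines and 0 elsewhere, and it changed no call of a member.

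Leaving out 1 library at a time, genes called ranged from 0 to 4949 (DHX35 depletion), 0 to 51 (GPATCH1 depletion), 0 to 3592 (difference of responses), 0 to 8 (both lines), 4 to 5887 (lines in DMSO) and 4 to 660 (lines in dTAG-13). Members called ranged from 0 to 7, 0 to 6 and 0 to 6 for the DHX35 depletion, the difference of responses and the lines in DMSO, where the highest count came without DHX35-dTAG DMSO replicate 2, and from 0 to 1 for the lines in dTAG-13. The members' median log2 value ranged from -0.24 to -0.010, 0.021 to 0.25, -0.15 to 0.022 and -0.046 to 0.095 in the same 4 comparisons. Its sign changed in both comparisons between the lines, in the GPATCH1 depletion (-0.029 to 0.033) and across both lines (-0.057 to 0.010).

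Summed member levels averaged 6151 CPM, and 6168 with plain library totals. The order per length kept 3 of 10 ranks under either other length. The cause of these moves was not tested. Leaving out DHX35-dTAG DMSO replicate 1, added for levels and order after seeing the data, gave 6069 CPM and kept 8 of 10 ranks. It moved the lowest and highest bounds of the members' intervals closer together in both lines.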
